A study of Rattus norvegicus with 18 samples.

Results

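The comparison described here set the livers of 9 rats killed at 24 months, called old, against the livers of 9 rats killed at 6 months, called young, with the dietary oil as a block. Samples were taken by their age label alone, and all 18 of the 18 samples of the series entered. Every rat was a male Wistar rat raised from weaning on a semi-synthetic diet of equal energy with 4% fat by weight, so the diet type, the low fat content, the sex and the strain were shared by both ages. At each age the fat was virgin olive oil in 3 rats, sunflower oil in 3 and fish oil in 3, with 1 array per rat. Livers are numbered 1 to 3 within a group, as in the labels. Food was free for 2 months and was then rationed at 25 g per rat per day, and rats lived 3 to a cage, per the labels. The labels do not say which rats shared a cage, and no rat was measured at both ages. P-values therefore measure the spread between these animals as housed, and a cohort, a killing session or an array batch that went with age cannot be told apart from age.

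The liver breaks down amino acids, keeps blood glucose and lipids supplied, makes most plasma proteins and clears foreign compounds. Hepatocytes do this work with dense mitochondria, ribosomes and endoplasmic reticulum, while Kupffer cells, the resident macrophages, and endothelial and stellate cells line the blood spaces around them. Interferons are signals that make cells transcribe genes against viruses and for antigen presentation, and p53 is a transcription factor that answers DNA damage by halting the cell cycle or starting cell death. In rats the pattern of growth hormone release makes the male liver differ from the female liver in many enzymes.

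In old livers, many antiviral genes of the interferon response, some targets of p53 and some members of the activin and TGF-beta family were higher, and some genes of mitochondria, the proteasome, amino acid breakdown and haem synthesis were lower. Across 14217 genes, 744 passed a Benjamini-Hochberg adjusted p of 0.05 (5.23%). Of these, 389 were higher in old livers (2.74% of all genes) and 355 were lower (2.5%). A difference here is old minus young on the log2(signal + 16) scale, given with its standard error (SE), and a signal is the deposited intensity. Most changes were small: the median was 0.55 among genes that rose and -0.50 among genes that fell, 448 of the 744 (60.2%) moved by less than 1.5-fold, and 64 rose and 27 fell by more than 2-fold. The difference had 1 sign in all 3 oils for 739 of the 744 genes, which choosing genes by their mean over these oils favours, and the median over all genes was 0.03. The balance of rises and falls moved with the scaling of the arrays. Rises made up 52.3% of the calls as deposited, 38.9% after a further quantile normalization (275 higher, 432 lower) and 19.9% when each array was centred on its median (219 higher, 883 lower). The median over all genes was then -0.02 and -0.07. No gene called both as deposited and under another setting changed its direction. The count of calls fell to 482 without old olive oil liver 2 (256 higher, 226 lower). Falls numbered 236 without young fish oil liver 1 and 543 without old olive oil liver 1.

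Some livers stood apart from others of their age. The number 2 young livers, 1 in each oil, deviated together from the other young livers (correlations of their deviations from 0.404 to 0.459 across genes, which are not independent), with high lipogenic genes. Number 1 and number 3 young livers of different oils correlated at 0.153 to 0.245 and 0.184 to 0.306, against -0.334 to 0.113 between young livers of different numbers. Each deviation is from the mean of the 3 livers of its group. A deviation shared by the number 2 livers therefore shifts numbers 1 and 3 together as well, and these correlations are not separate evidence. At 24 months livers of 1 number correlated at -0.114 to 0.203. Old fish oil liver 3 had summed levels of monocyte and neutrophil markers (8.23 against a median of 6.37 over the old livers, in mean log2 units) and of T and NK cell markers (5.84 against 5.03) above every other liver. Without the number 2 young livers, 660 genes passed, 443 of which also passed with them, and without old fish oil liver 3, 587 passed. Hepatocyte markers were bright in every liver, 12.5 to 12.8 in young and 12.2 to 12.7 in old livers, but leaned lower in old livers. Of 11 measured markers 2 fell and 0 rose, 1 had a positive difference, and the list median was -0.14. In 4 old livers the summed level was below that of every young liver. With arrays centred on their medians 3 fell. After quantile normalization 0 fell (median -0.05), as without the number 2 young livers and without old fish oil liver 3. The median signal of an array was 15.5 to 18.4 in young and 18.5 to 20.6 in old livers, so every old array had a higher median than every young array. In bulk liver, fewer cells of a type and less RNA per cell cannot be told apart.

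Rises and falls sat at different signal levels. When genes were split into 5 bins of equal size by mean signal, the dimmest bin held 11 rises and 0 falls, with 0.39% of its genes called. The brightest bin held 83 rises and 210 falls, with 10.3% called. The median difference was 0.02, 0.09, 0.08, 0.02 and -0.08 from the dimmest to the brightest bin. Bright genes include the plasma proteins, ribosomal proteins and mitochondrial enzymes of hepatocytes.

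**Figure D1:**
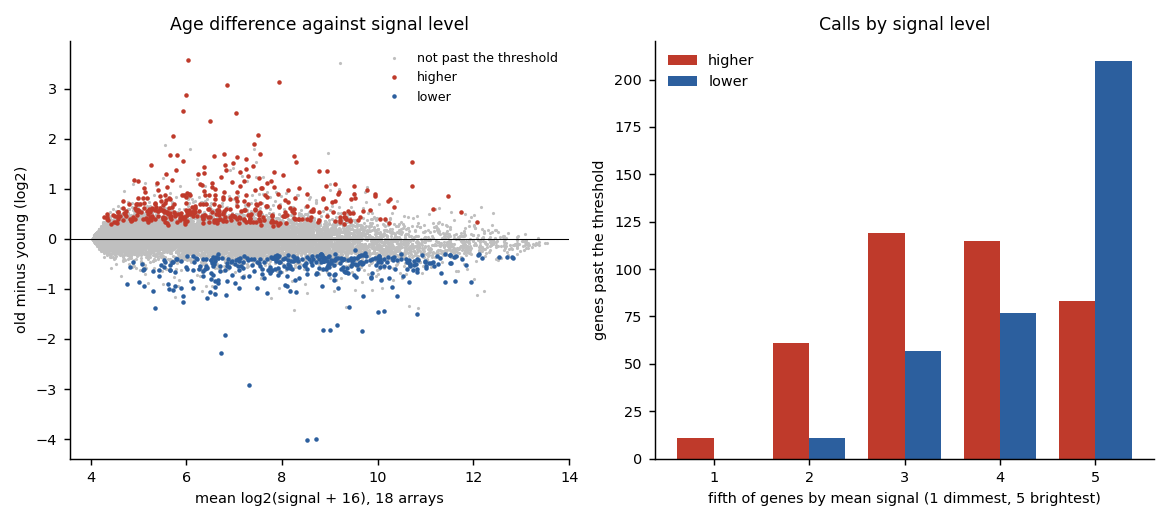
Left, the difference of old against young livers (log2 units) by mean log2 signal for 14217 genes, with genes past the threshold in colour. Right, genes higher and lower at 24 months in each of 5 bins by mean signal, where falls outnumber rises only in the brightest bin (210 against 83).

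Many gene families held calls in only 1 direction, but a list with 1 called member can go only 1 way, and many of these lists had 1. Of 125 lists of pathways, symbol families and markers, 35 held only rises among their called members, 42 only falls, and 19 held no called gene. The highest shares of called members among lists with 10 or more measured genes were in female-biased liver genes (8 of 14), interferon-induced antiviral genes (19 of 36), p53 targets (8 of 25), the circadian clock (6 of 19) and complex I of the respiratory chain (9 of 34), against 5.23% of all genes. List members were chosen with earlier results of these data known, which can raise such shares. Calls were also more frequent among bright genes, with 10.3% called in the brightest bin. The shares are a description and not a test.

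**Figure D2:**
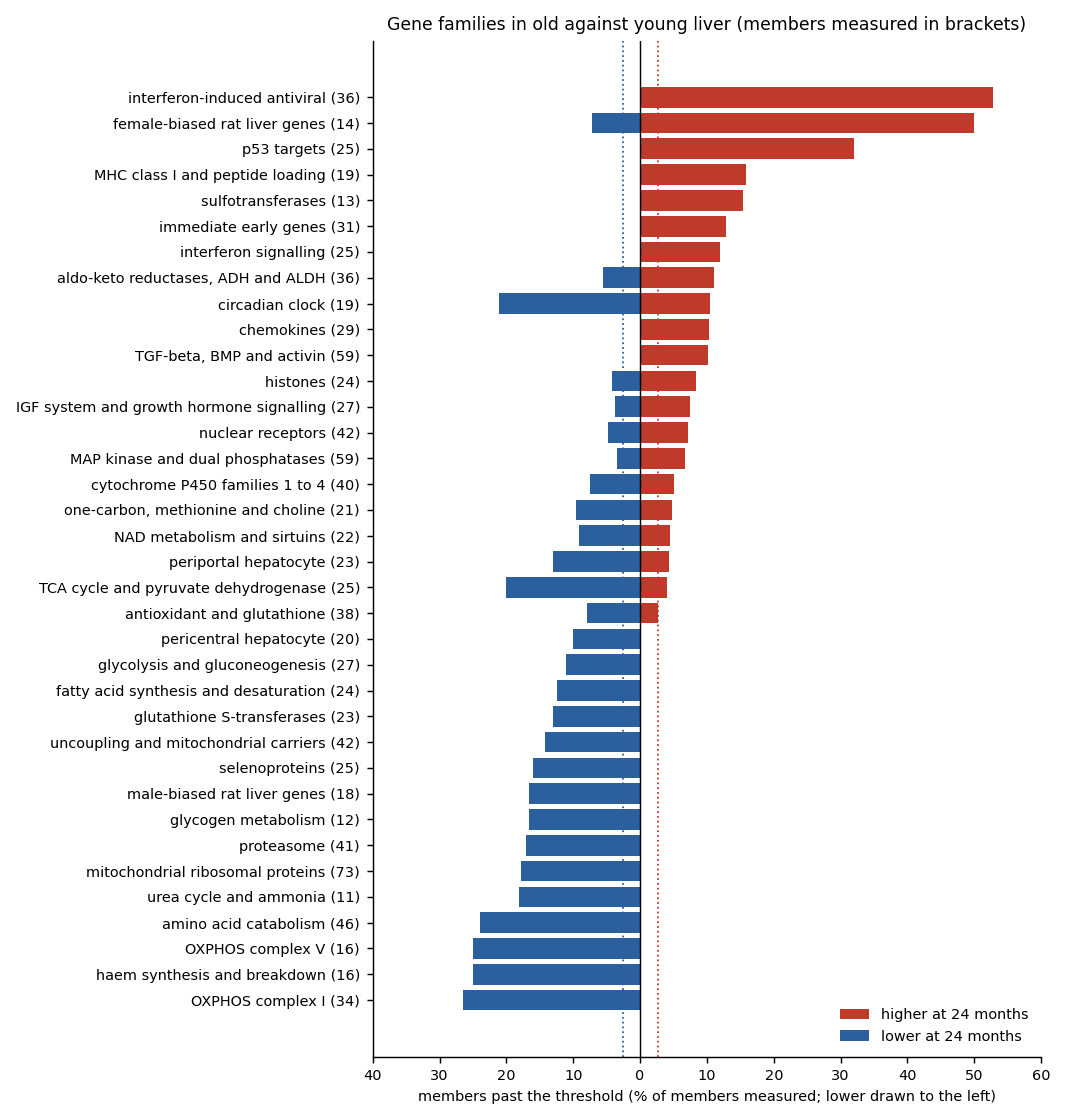
Share of measured members past the threshold in 36 gene lists with at least 10 measured members and at least 10% called, marker lists aside; members higher at 24 months are drawn to the right and members lower to the left, and dotted lines mark the shares over all genes (2.74% and 2.5%). Interferon, p53 and activin lists extend only to the right, and complex I, complex V, mitochondrial ribosome, proteasome, amino acid and haem lists only to the left.

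Antiviral genes of the interferon response were higher in old livers. Of 36 measured members of the interferon-induced antiviral list, 19 rose and 0 fell, 35 had a positive difference, and the list median was 0.55 against 0.03 over all genes. The count was 18 without the number 2 young livers, 16 without old fish oil liver 3, 15 after quantile normalization, 18 with arrays centred on their medians, where 1 fell, and 14 to 20 with each array left out in turn. Rtp4, a chaperone of cell surface receptors that is induced by interferon, was among the 5 genes with the smallest adjusted p of all. Signals of Rtp4 ran between 207 and 474 (median 298) in young livers and between 551 and 1323 (median 745) in old livers. No old liver fell into the young range, and the difference was 1.35 ± 0.128, 2.55-fold higher, adjusted p = 1.04e-05. Signals of Ifit2, a protein that binds foreign RNA, ran between 87.8 and 277 (median 163) in young livers and between 260.5 and 787 (median 366) in old livers, with 8 of 9 old livers above every young liver (1.28 ± 0.174, 2.43-fold higher, adjusted p = 0.000546). Isg15, a ubiquitin-like protein that is induced by interferon and attached to other proteins, ran between 25.4 and 92.9 (median 49.7) in young livers and between 76.4 and 641 (median 146) in old livers. The ranges of Isg15 overlapped, with 7 old livers above every young liver. The difference of Isg15 was 1.37 ± 0.289, 2.59-fold higher, adjusted p = 0.01. Usp18, the protease that removes Isg15 from its targets, rose with it (1.24 ± 0.289, adjusted p = 0.0176), but only 4 old livers lay above every young liver. Old fish oil liver 3 had the highest signal of all 3 genes, and without it the differences were 1.28, adjusted p = 2.06e-05 for Rtp4, 1.19, adjusted p = 0.000562 for Ifit2 and 1.14, adjusted p = 0.00722 for Isg15.

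Not every antiviral gene moved. The membrane proteins Ifitm1 (0.41), Ifitm2 (0.21) and Ifitm3 (0.10), the exonuclease Isg20 (0.06) and Rsad2, known as viperin (0.29), did not pass, and Ifi35 had the 1 negative difference (-0.23). These 6 genes were named after their values were seen.

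Among the interferon-induced GTPases, which attack the compartments or particles of invading microbes, 5 of 8 measured members rose and 0 fell, with a median of 0.89. They were Igtp, Irgm, Mx2, Mx1 and Irgm2 (0.64). Signals of Igtp ran between 79.5 and 255 (median 163) in young livers and between 348 and 3231 (median 440.0) in old livers, and Irgm ran between 40.1 and 120.5 (median 54.1) in young livers and between 95.6 and 1217 (median 193) in old livers. Igtp did not overlap between the ages (1.66 ± 0.346, 3.16-fold higher, adjusted p = 0.0097), and Irgm overlapped in 1 old liver (1.64 ± 0.306, 3.13-fold higher, adjusted p = 0.00487). Without old fish oil liver 3, whose signals were the highest of both, the differences were 1.32, adjusted p = 0.000945 for Igtp and 1.36, adjusted p = 0.000562 for Irgm. Mx2 rose (1.30 ± 0.282, adjusted p = 0.012), and the call of Mx1 (0.72 ± 0.204, adjusted p = 0.0489) ended in 14 of 18 fits that each left out 1 array (highest adjusted p = 0.0902, without young fish oil liver 1) and without the number 2 young livers (0.83, adjusted p = 0.0587). The list count was then 3 of 8.

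Of 25 genes of interferon signalling, 3 rose and 0 fell, all of them interferon regulatory factors. Irf7, the factor that amplifies the production of interferon, ran between 60.3 and 164 (median 73) in young livers and between 76.9 and 604 (median 261) in old livers, and 7 old livers lay above every young liver (1.25 ± 0.261, 2.38-fold higher, adjusted p = 0.0097). Irf9, the DNA-binding partner of the STAT proteins, rose as well (0.70 ± 0.15, adjusted p = 0.0113). Irf1 did not overlap between the ages, with signals between 64.5 and 132 (median 81.6) in young livers and between 159 and 1621 (median 205) in old livers. The difference of Irf1 was 1.45 ± 0.297, 2.74-fold higher, adjusted p = 0.00866. Without old fish oil liver 3, Irf1 gave 1.15, adjusted p = 0.000256. The other 22 measured members, among them receptors and STAT and JAK genes, did not pass, and the list median was 0.25.

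Interferon regulatory factors and STAT complexes bind the interferon-stimulated response element, whose core was searched here as GAAANNGAAA on both strands (TTTCNNTTTC on the other), in the 250 bases before each start site of the RefSeq promoters of GRCr8. Of 14217 genes, 11733 matched a promoter. The motif was in 902 of all 27457 promoters (3.29%) and in 311 of the 11733 matched genes (2.65%). It was in 23 of 319 matched genes that rose (7.21%) and in 4 of 310 matched genes that fell (1.29%). Of matched antiviral list members 16 of 25 held it (64%), and of those that rose 8 of 13 (61.5%), a share close to that of the whole list. The interferon-induced GTPases had it in 6 of 7 promoters. Of 13 members that rose and hold the motif, the stretches of 10 are shown to let the element be compared between them, 5 prime to 3 prime along the gene, with the motif in capitals. Ifi44 (0.62), Ifi44l (0.83) and Parp12 (0.48) hold it too.
Irf7, chr1:205800058-205800117, minus strand: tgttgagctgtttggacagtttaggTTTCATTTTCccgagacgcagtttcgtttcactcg
Bst2, chr16:18255058-18255117, minus strand: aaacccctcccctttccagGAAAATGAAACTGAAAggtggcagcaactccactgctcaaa
Oas1a, chr12:41330406-41330465, plus strand: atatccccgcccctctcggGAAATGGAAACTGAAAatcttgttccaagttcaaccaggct
Ifih1, chr3:67683993-67684052, minus strand: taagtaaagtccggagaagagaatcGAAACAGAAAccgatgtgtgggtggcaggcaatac
Ifit3, chr1:241527257-241527316, plus strand: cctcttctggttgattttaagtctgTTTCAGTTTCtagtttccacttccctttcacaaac
Eif2ak2, chr6:21941113-21941153, plus strand: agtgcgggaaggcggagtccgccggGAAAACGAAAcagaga
Tap1, chr20:4668630-4668689, minus strand: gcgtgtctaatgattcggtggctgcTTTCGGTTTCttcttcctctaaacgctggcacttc
Igtp, chr10:42874919-42874978, plus strand: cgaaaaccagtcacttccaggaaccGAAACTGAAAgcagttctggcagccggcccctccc
Irgm2, chr10:42889843-42889902, plus strand: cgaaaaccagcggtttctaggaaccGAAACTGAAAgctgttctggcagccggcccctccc
Irgm, chr10:33742579-33742637, minus strand: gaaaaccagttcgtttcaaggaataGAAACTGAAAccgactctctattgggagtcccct
Irf7 is the regulatory factor itself, Bst2 tethers budding virus to the cell (0.98), Oas1a makes the oligoadenylates that start RNA decay (0.94), Ifih1 senses viral RNA (0.65), Ifit3 belongs to the family of Ifit2 (0.57), Eif2ak2 halts translation when it meets viral RNA (0.69) and Tap1 carries peptides to class I molecules (0.94). In Bst2 and Oas1a a pair of motifs overlapped, so the capitals run together. The stretches of Igtp and Irgm2, which start 14924 bases apart on chromosome 10, were identical at 54 of 60 bases, and cross-hybridization between such relatives was not tested. A motif match is a description of letters and not a measured site. The STAT element searched as TTCNNNGAA, on both strands, was in 2066 of all promoters (7.52%) and in 719 of the 11733 matched genes (6.13%). It was in 27 of 319 matched genes that rose (8.46%).

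**Figure D3:**
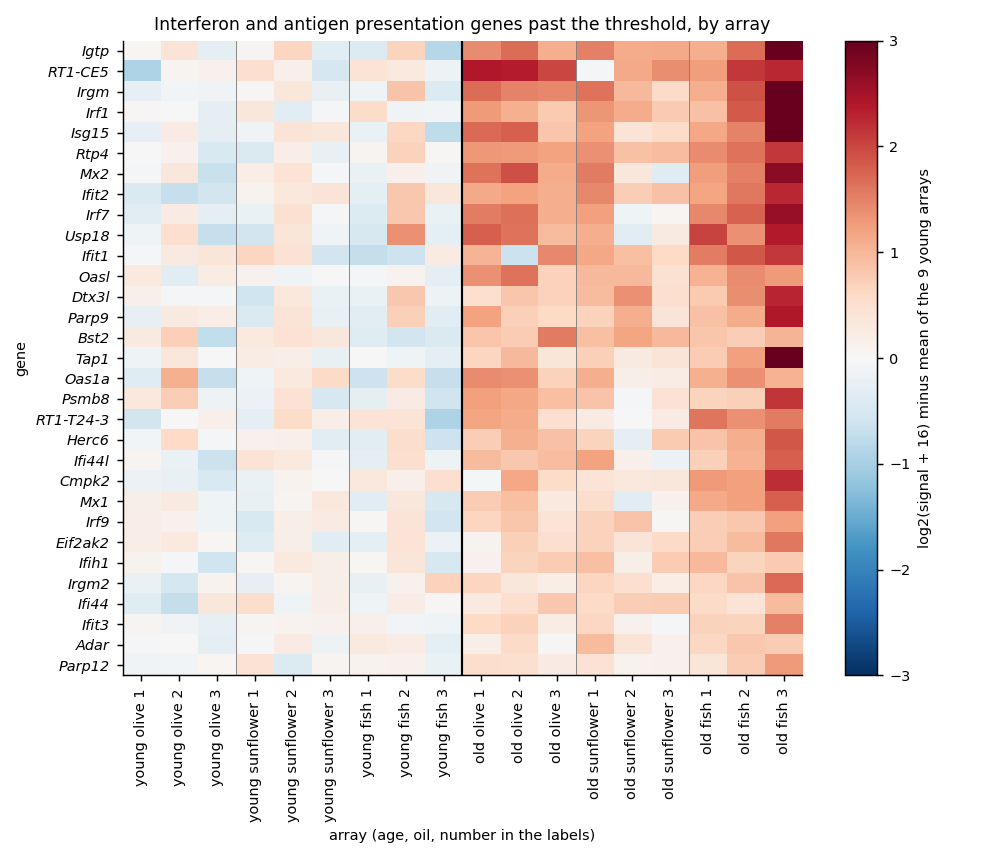
Log2(signal + 16) of 31 called interferon, immunoproteasome and class I genes on each of 18 arrays, relative to the mean of the young arrays, with the colour scale ending at -3 and 3. Each gene is above the young mean in 8 or 9 of 9 old livers, and old fish oil liver 3 has the deepest colour for Igtp, Irgm and Irf1.

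For antigen presentation, 3 of 19 class I and peptide loading genes rose and 0 fell (median 0.25), and 0 of 10 class II genes passed although all 10 had a positive difference (median 0.51). RT1-CE5, a class I heavy chain, ran between 12.4 and 60.6 (median 42.3) in young livers and between 35.4 and 268 (median 199) in old livers. The difference of RT1-CE5 was 1.65 ± 0.265, 3.15-fold higher, adjusted p = 0.00199. Of the other probe sets of RT1-CE5, a pair passed in the same direction and the brightest gave 0.53 (adjusted p = 0.193 over all probe sets), and class I genes are near-identical copies that probes can share. The call of RT1-T24-3 (0.87 ± 0.229, adjusted p = 0.0349) ended in 8 of 18 fits that each left out 1 array (highest adjusted p = 0.0696, without old olive oil liver 2), and that of Tap1 (0.94 ± 0.265, adjusted p = 0.0465) ended in 12 of 18 fits with 1 array left out, highest adjusted p = 0.0874 without young fish oil liver 3. Only 1 of the 19 rose without old fish oil liver 2. Psmb8, an immunoproteasome subunit that shapes peptides for class I, ran between 260.3 and 681 (median 359.9) in young livers and between 392 and 1845 (median 738) in old livers. The difference of Psmb8 was 0.90 ± 0.219, 1.86-fold higher, adjusted p = 0.0235. The class II median was 0.26 without old fish oil liver 3, which had the highest summed class II level, 10.1 against a median of 7.49 over the old livers.

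Inflammatory families leaned upward, with 3.4% to 10.3% of their members called against 5.23% of all genes. Of 29 chemokines, 3 rose: Cxcl10 (1.67 ± 0.433, adjusted p = 0.0318), Cxcl14 (0.69 ± 0.198, adjusted p = 0.05) and Cxcl12 (0.60 ± 0.17, adjusted p = 0.0473). The 9 old values of Cxcl10, which draws T cells to tissue and is induced by interferon, lay above the 9 young values, with signals between 5.7 and 23.9 (median 13) in young livers and between 29.2 and 1204 (median 47.5) in old livers. All 3 chemokine calls ended without the number 2 young livers and without old fish oil liver 2. Of 51 interleukin and TNF superfamily genes 4 rose and 0 fell. Il7, a growth factor of lymphocytes, ran between 19.7 and 77 (median 37) in young livers and between 79.3 and 218 (median 113) in old livers, without overlap. The difference of Il7 was 1.44 ± 0.184, 2.72-fold higher, adjusted p = 0.000262. Il7 stayed past the threshold with each array left out in turn. Tnfrsf12a, the receptor of the cytokine TWEAK, rose (0.88 ± 0.208, adjusted p = 0.0196), as did Tnfrsf1b, a TNF receptor (0.78 ± 0.189, adjusted p = 0.0217), and Il3 (0.50 ± 0.115, adjusted p = 0.0168). Of 48 chemokine and cytokine receptors 3 rose, among them Il13ra2, a decoy receptor of interleukin 13 (0.62 ± 0.126, adjusted p = 0.00835). Of 29 Toll-like receptor and inflammasome genes 1 rose, Tlr8 (0.44 ± 0.101, adjusted p = 0.0163), with a list median of 0.31, and of 23 genes of the NF-kappaB pathway 1 rose, Traf3 (0.39 ± 0.091, adjusted p = 0.0169).

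Markers of several immune cell types leaned the same way, but those of B and plasma cells did not (5 of 10 positive, median 0.01). All 12 measured Kupffer cell and macrophage markers had a positive difference (median 0.41), with C1qa the 1 that passed (0.51 ± 0.145, adjusted p = 0.0491; its call ended in 13 of 18 fits with 1 array left out, highest adjusted p = 0.088 without old olive oil liver 2). Without old sunflower oil liver 2, 3 of them passed. Their summed level ran 7.57 to 8.22 in young and 7.89 to 9.24 in old livers, with 7 old livers above every young liver. Of 13 monocyte and neutrophil markers 12 had a positive difference and 0 passed (median 0.60, and 0.37 without old fish oil liver 3). Their summed level ran 5.86 to 6.25 in young and 5.99 to 8.23 in old livers, and 1 of the 13 was near the floor of the scale on every array. T and NK markers had 1 of 24 called, Cd4 (0.55 ± 0.143, adjusted p = 0.0323), which macrophages also express in rats. The call of Cd4 ended in 8 of 18 fits with 1 array left out, highest adjusted p = 0.0621 without old olive oil liver 2. After quantile normalization, and with arrays centred, 0 of the 24 passed. Markers of B and plasma cells (0 of 10), dendritic cells (0 of 8), stellate cells (0 of 16) and endothelium (0 of 16) did not pass, but 2 dendritic cell markers rose without old fish oil liver 3 and 2 stellate cell markers without old olive oil liver 1. The part of these cells in the rise of interferon genes was not tested.

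A group of p53 targets rose in old livers. Of 25 measured members 8 rose and 0 fell (median 0.27), and the count was 8 or 9 with each array left out in turn, 8 after quantile normalization and 6 without the number 2 young livers. Signals of Phlda3, which blocks the kinase AKT at the membrane, ran between 19.5 and 73.8 (median 46.2) in young livers and between 102 and 333 (median 172) in old livers. Every old liver was above every young liver (1.69 ± 0.205, 3.23-fold higher, adjusted p = 0.000205). Cyclin G1 (Ccng1), which acts back on p53, ran between 158 and 274 (median 214) in young livers and between 226 and 664 (median 472) in old livers, with 8 old livers above every young liver. The difference of Ccng1 was 1.01 ± 0.154, 2.02-fold higher, adjusted p = 0.00127. Fas, the death receptor, ran between 29 and 85.3 (median 60.1) in young livers and between 66.8 and 338 (median 115) in old livers. The difference of Fas was 0.88 ± 0.172, 1.84-fold higher, adjusted p = 0.00654. Cdkn1a, the inhibitor of cyclin-dependent kinases, overlapped between the ages (1.33 ± 0.327, adjusted p = 0.0244), and its call ended without the number 2 young livers (1.05, adjusted p = 0.0743). The other members that rose, named after their values were seen, were the nuclease Aen (0.81), the kinase Plk2 (0.62), the hormone Gdf15 (0.57) and Mdm2, the ligase that degrades p53 (0.39). The summed level of the list narrowly did not overlap between the ages, 6.63 to 6.91 in young and 6.93 to 7.2 in old livers. That of the cell cycle and mitosis list, with 3 of 44 called, did not overlap either (4.73 to 4.92 and 4.95 to 5.51). Every old array also had a higher median signal than every young array, and the part of array scaling in these separations was not tested. Cdkn2a, another gene linked to senescence, was near the floor at both ages (-0.11 ± 0.128, adjusted p = 0.67).

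Activin subunits and feedback genes of TGF-beta signalling were higher. Of 59 members of the TGF-beta, BMP and activin list 6 rose and 0 fell (median 0.13), and 5 to 8 rose with each array left out in turn. Inhba codes for a subunit of activin A, a growth inhibitor of hepatocytes. Signals of Inhba ran between 30.3 and 251 (median 74.2) in young livers and between 153 and 509 (median 378) in old livers, with 7 old livers above every young liver. The difference of Inhba was 1.69 ± 0.311, 3.23-fold higher, adjusted p = 0.00472. A dimmer probe set of Inhba gave 0.39 (adjusted p = 0.175 over all probe sets). Inhbe, the subunit of activin E that the liver secretes, ran between 326 and 858 (median 529) in young livers and between 722 and 1504 (median 935) in old livers. The difference of Inhbe was 0.81 ± 0.165, 1.75-fold higher, adjusted p = 0.00847. Id2, which holds back helix-loop-helix transcription factors, ran between 479.9 and 912 (median 737) in young livers and between 940.2 and 1968 (median 1219) in old livers, without overlap. The difference of Id2 was 0.85 ± 0.147, 1.8-fold higher, adjusted p = 0.00309. Skil, a repressor of SMAD proteins, rose (0.84 ± 0.156, adjusted p = 0.00482), as did the receptor Acvr2a (0.36), named after its value was seen, and Gdf15 (0.57 ± 0.131, adjusted p = 0.0166). Tgfb1 itself (0.13 ± 0.225, adjusted p = 0.799) and Col1a1 (-0.12 ± 0.196, adjusted p = 0.785) did not pass, none of 41 collagens or 33 other matrix proteins and crosslinkers rose (2 of the 33 without old olive oil liver 1), and Col18a1 fell (-0.43 ± 0.117, adjusted p = 0.0411; call lost in 10 of 18 fits with 1 array left out, highest adjusted p = 0.0756 without old sunflower oil liver 3).

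Stress-responsive and growth genes rose in small numbers. Of 31 immediate early genes 4 rose and 0 fell (median 0.37). The small GTPase gene Rhob ran between 80.5 and 161 (median 118) in young livers and between 149.6 and 439.5 (median 209) in old livers, with 8 old livers above every young liver. The difference of Rhob was 1.01 ± 0.157, 2.02-fold higher, adjusted p = 0.00144. The transcription factor Jun ran between 56.5 and 172 (median 115) in young livers and between 123 and 438 (median 186) in old livers (0.97 ± 0.225, 1.96-fold higher, adjusted p = 0.0172), Myc gave 1.00 ± 0.249, adjusted p = 0.0251 with its call lost in 2 of 18 fits with 1 array left out, highest adjusted p = 0.0537 without young fish oil liver 3, and Nr4a2 did not overlap (0.54 ± 0.083, adjusted p = 0.00128). Of 44 cell cycle and mitosis genes 3 rose, Mybl1, Ccnd1 and Mybl2 (0.57 ± 0.132, adjusted p = 0.0175), 37 had a positive difference and the median was 0.17, and 5 rose without old olive oil liver 1. Among 49 DNA replication genes Mcm4, a subunit of the replicative helicase, rose without overlap, with dim signals between 16.7 and 29.7 (median 24.5) in young livers and between 30.7 and 71.9 (median 40.8) in old livers (0.53 ± 0.111, 1.44-fold higher, adjusted p = 0.01), beside the nucleoside kinase Dck (0.55 ± 0.117, adjusted p = 0.0108) and Pole4 (0.35 ± 0.092, adjusted p = 0.0351; call lost in 11 of 18 fits with 1 array left out, highest adjusted p = 0.0696 without old olive oil liver 2). In that list 0 fell with all arrays, but 2 fell after quantile normalization, 3 with arrays centred and 3 without the number 2 young livers. In DNA repair, 0 of 70 genes rose and 1 fell, Xrcc6, a subunit of the Ku complex that holds broken ends (-0.54 ± 0.121, adjusted p = 0.0153; without the number 2 young livers -0.49, adjusted p = 0.0654), and 4 fell without old olive oil liver 1, 6 after quantile normalization and 7 with arrays centred. Among 33 BCL2 and caspase genes, Casp12 (1.31 ± 0.232, adjusted p = 0.00379) and the caspase inhibitor Xiap (0.78 ± 0.169, adjusted p = 0.0118) rose and Bcl2l11, the cell death activator BIM, fell, with signals between 90.5 and 188 (median 109) in young livers and between 46.2 and 106 (median 56.4) in old livers. The difference of Bcl2l11 was -0.82 ± 0.136, 1.77-fold lower, adjusted p = 0.00245. Without young sunflower oil liver 3, 4 of these 33 rose.

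**Figure D4:**
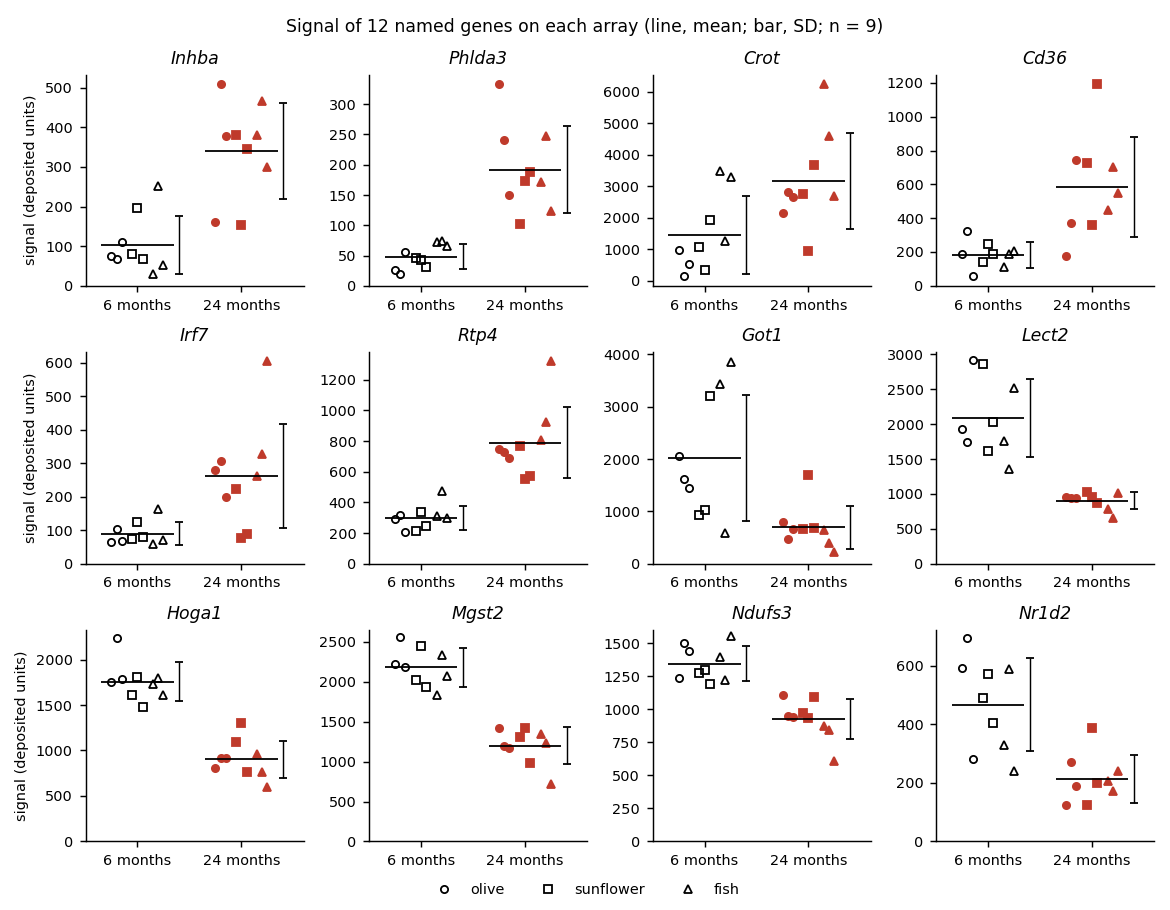
Signal in deposited units of 12 named genes on each of the 9 young and 9 old arrays, with the oil as the marker shape, the mean as a line and the SD as a bar (n = 9). Phlda3, Rtp4, Lect2, Hoga1, Mgst2 and Ndufs3 show no overlap between the ages, while Crot and Got1 overlap widely.

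Many mitochondrial genes were lower, by small amounts. In the respiratory chain and ATP synthase, members that fell were 9 of 34 in complex I (median -0.30), 1 of 4 in complex II, 3 of 8 in complex III, 1 of 16 in complex IV (median -0.13) and 4 of 16 in complex V, and 0 rose. Ndufs3, a core subunit of complex I, ran between 1192 and 1552 (median 1294) in young livers and between 606 and 1109 (median 941) in old livers without overlap. The difference of Ndufs3 was -0.54 ± 0.098, 1.46-fold lower, adjusted p = 0.00436. Of 73 mitochondrial ribosomal proteins, which build the ribosomes that translate mitochondrial DNA, 13 fell, 0 rose and 68 had a negative difference (median -0.24). Mrpl23 ran between 547 and 777 (median 623) in young livers and between 361 and 660.1 (median 408) in old livers, with 8 old livers below every young liver (-0.52 ± 0.092, 1.43-fold lower, adjusted p = 0.00366), and Mrpl2 (-0.52 ± 0.1, adjusted p = 0.00605), Mrpl58 (-0.51 ± 0.096, adjusted p = 0.00504) and Mrps16 (-0.49 ± 0.104, adjusted p = 0.011) were close to it. Old olive oil liver 1 was the exception, with a summed level of 8.93 against 8.38 to 8.55 in the other old livers and 8.6 to 9.04 in young livers. Without that liver, 29 of the 73 fell, and with each other array left out 9 or more did. It was also high for complex I subunits, 10.6 against a median of 10.2 over the old livers, and without it members that fell were 17 of 34 in complex I, 2 of 4 in complex II, 5 of 8 in complex III and 4 of 16 in complex IV. In complex IV, 0 fell without old fish oil liver 1, and in complex V, 2 fell without old fish oil liver 2. Quantile normalization and leaving out the number 2 young livers each left 1 fall in complex V and 0 in complex IV, and complex II had 0 without those livers. With arrays centred on their medians 23, 3, 5, 5 and 10 members of complexes I to V fell, and 31 mitochondrial ribosomal proteins.

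Other mitochondrial functions followed in part. Of 25 genes of the TCA cycle and pyruvate dehydrogenase 5 fell and 1 rose, and without the number 2 young livers 3 fell and 0 rose. Idh2, which makes mitochondrial NADPH, ran between 962 and 1558 (median 1173) in young livers and between 407 and 1135 (median 718) in old livers, with 8 old livers below every young liver. The difference of Idh2 was -0.78 ± 0.134, 1.72-fold lower, adjusted p = 0.00304. Mdh2, the malate dehydrogenase, fell (-0.40 ± 0.09, adjusted p = 0.0147), as did Sdhb (-0.48 ± 0.099, adjusted p = 0.0097), whose call ended without the number 2 young livers (-0.39, adjusted p = 0.0548). The rise was Pdk4, the kinase that shuts off pyruvate dehydrogenase (1.10 ± 0.304, adjusted p = 0.0442), and its call ended in 14 of 18 fits that each left out 1 array (highest adjusted p = 0.0829, without old fish oil liver 2). In import and dynamics, 5 of 55 fell and 0 rose, 3 without old olive oil liver 2 and 9 without old olive oil liver 1. Chchd6, a part of the scaffold of the inner membrane folds, ran between 69.1 and 204 (median 116) in young livers and between 24.9 and 115 (median 50.8) in old livers. The difference of Chchd6 was -1.10 ± 0.202, 2.14-fold lower, adjusted p = 0.00472. Ppargc1a, the coactivator of mitochondrial biogenesis, did not overlap, with dim signals between 38.5 and 77.5 (median 65.6) in young livers and between 10.7 and 36.9 (median 25.1) in old livers. The difference of Ppargc1a was -0.94 ± 0.133, 1.92-fold lower, adjusted p = 0.000777. The matrix protease Clpp (-0.49 ± 0.103, adjusted p = 0.0097) and the import chaperone Timm13 (-0.46 ± 0.127, adjusted p = 0.0423; call lost in 12 of 18 fits with 1 array left out, highest adjusted p = 0.0808 without young fish oil liver 1) also fell. Of 42 mitochondrial carriers 6 fell and 0 rose, led by Slc25a21 (-0.95 ± 0.175, adjusted p = 0.00472) and the pyrimidine nucleotide carrier Slc25a33 (-0.89 ± 0.159, adjusted p = 0.00399), and 2 to 7 fell with each array left out in turn, the fewest without old olive oil liver 3. None of 23 genes of mitochondrial beta-oxidation and ketogenesis passed (median -0.11), which was also the count without old fish oil liver 3, but 4 fell without the number 2 young livers and 1 rose after quantile normalization.

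**Figure D5:**
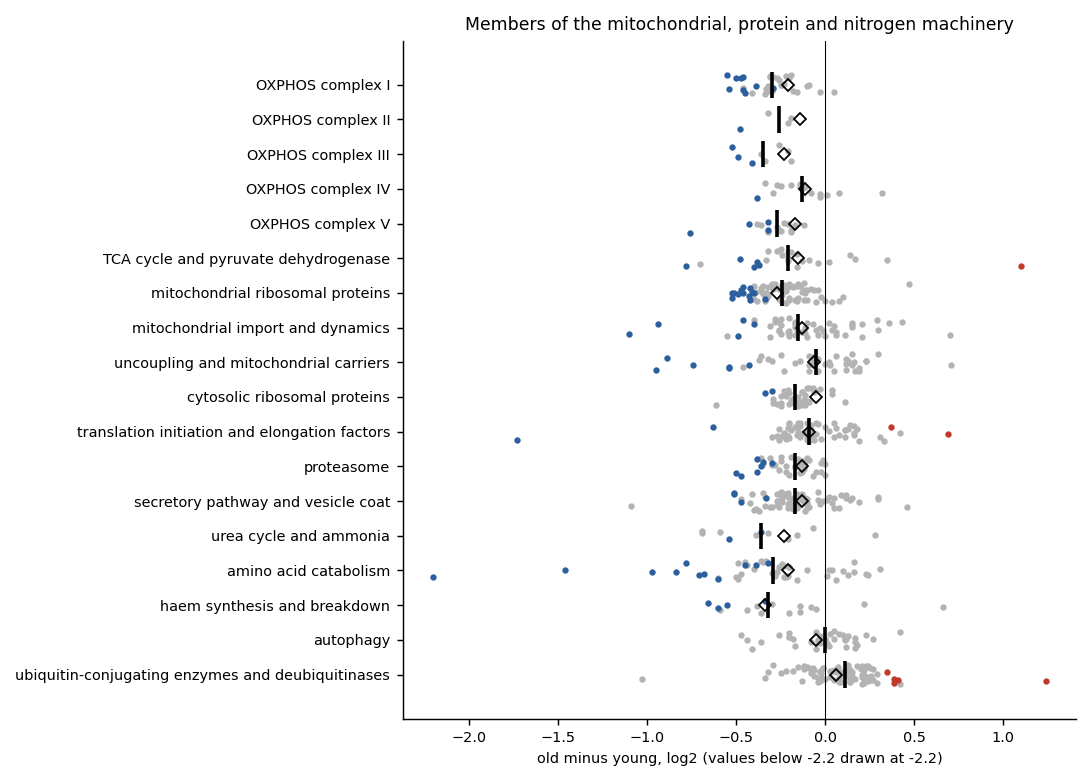
Difference of old against young livers (log2 units) for the members of 18 lists of mitochondrial, translation, protein turnover and metabolic genes, with the list median as a black line and the median after quantile normalization as a diamond; values below -2.2 are drawn at -2.2. Most members of the respiratory complexes, mitochondrial ribosome and proteasome lie below 0, and the diamonds of lists of very bright genes such as cytosolic ribosomal proteins lie nearer to 0 than the lines.

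Protein synthesis and turnover outside mitochondria differed by part. Of 42 cytosolic ribosomal proteins 2 fell (median -0.17, and -0.05 after quantile normalization with 0 called), and with each array left out in turn 0 to 14 fell, the most without old olive oil liver 1, whose summed level was the highest of all 18, 11.5. The proteasome, which degrades ubiquitin-tagged proteins, had 7 of 41 members lower, 0 higher and 1 of 41 above 0 (median -0.17). Psmc3, an ATPase of its cap, ran between 835 and 1252 (median 907) in young livers and between 586 and 870.1 (median 659) in old livers. The difference of Psmc3 was -0.50 ± 0.093, 1.42-fold lower, adjusted p = 0.00472. Psmb7, a proteolytic subunit, ran between 1055 and 1703 (median 1197) in young livers and between 728 and 1157 (median 881) in old livers. The difference of Psmb7 was -0.47 ± 0.104, 1.39-fold lower, adjusted p = 0.0128. Psmd2, the scaffold of the cap, did not overlap (-0.38 ± 0.078, adjusted p = 0.00917). With arrays left out in turn the proteasome count ran from 3, without old olive oil liver 2, to 13, without old olive oil liver 1, and was 4 after quantile normalization. Vcp, the ATPase that pulls tagged proteins out of membranes for the proteasome, ran between 1401 and 1784 (median 1521) in young livers and between 1002 and 1357 (median 1142) in old livers, without overlap. The difference of Vcp was -0.43 ± 0.083, 1.35-fold lower, adjusted p = 0.00605. Among 86 ubiquitin-conjugating enzymes and deubiquitinases 5 rose and 0 fell, Usp18 aside by less than 1.5-fold, with 3 rises without old fish oil liver 1, but 1 rose and 3 fell with arrays centred on their medians. None of 39 autophagy genes passed (median 0.00), but 3 fell without the number 2 young livers and 5 with arrays centred. In the secretory pathway 4 of 70 fell and 0 rose (median -0.17), among them Copz2 of the vesicle coat (-0.51 ± 0.11, adjusted p = 0.012) and Ssr2 of the translocon (-0.47 ± 0.105, adjusted p = 0.0147), and 12 fell without old olive oil liver 1, 2 without old fish oil liver 2 and 16 with arrays centred. Xbp1, the transcription factor that expands the secretory machinery, ran between 1514 and 3642 (median 2099) in young livers and between 953 and 2087 (median 1417) in old livers (-0.66 ± 0.146, 1.58-fold lower, adjusted p = 0.0136), the 1 called gene of 31 in the unfolded protein response (median -0.21), where 5 fell without old olive oil liver 1 and 7 with arrays centred.

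For RNA synthesis and processing, 1.9% of splicing factors and 8.3% of RNA polymerase and general factor genes were called, against 5.23% of all genes. Of 104 splicing factors 2 rose and 0 fell, but with arrays centred 0 rose and 3 fell. The rises were Hnrnpc (0.40 ± 0.093, adjusted p = 0.0173) and Hnrnpa2b1 (0.37 ± 0.104, adjusted p = 0.0448; call lost in 12 of 18 fits with 1 array left out, highest adjusted p = 0.0868 without old olive oil liver 2). Among 96 RNA polymerase and general factor genes 3 rose and 5 fell. The rises numbered 1 without young fish oil liver 3 and 5 without young sunflower oil liver 3, and the falls 1 without old fish oil liver 3 and 10 without old olive oil liver 1. Med16 of the Mediator complex fell (-0.59 ± 0.125, adjusted p = 0.0103) and Taf1c, a factor of ribosomal RNA synthesis, rose at low signal (0.59 ± 0.14, adjusted p = 0.0191). Of 258 zinc finger proteins 5 rose and 2 fell (2.7% called, median 0.09), but after quantile normalization 0 rose and 3 fell with a median of 0.00, and 11 rose without old olive oil liver 1 and 2 without old fish oil liver 2. Eif4ebp3 aside, the translation factors held 1 other fall, the kinase Eef2k (-0.63 ± 0.179, adjusted p = 0.0489; call lost in 14 of 18 fits with 1 array left out, highest adjusted p = 0.09 without old olive oil liver 2), and rises of Eif4e, which binds the mRNA start (0.37 ± 0.096, adjusted p = 0.0335; call lost in 10 of 18 fits with 1 array left out, highest adjusted p = 0.0637 without old sunflower oil liver 3), and of Eif2ak2, matched by its symbol though it is a kinase of the interferon response. Without old olive oil liver 1, 5 translation factors fell. For chromatin, Kdm2b, a histone demethylase, rose (0.44 ± 0.091, adjusted p = 0.00872), the linker histones H1f4 (0.53 ± 0.111, adjusted p = 0.01) and H1f10 (-0.99 ± 0.236, adjusted p = 0.0201) moved in opposite directions, and none of 40 histone acetylation enzymes passed.

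Amino acid breakdown was lower in old livers. Of 46 measured genes 11 fell and 0 rose (median -0.29), 8 fell after quantile normalization, 9 without old fish oil liver 3 and 9 to 14 with each array left out in turn. Signals of Hoga1, the last enzyme of hydroxyproline breakdown, ran between 1481 and 2242 (median 1756) in young livers and between 595 and 1298 (median 918) in old livers. The young and old ranges were separate (-0.97 ± 0.119, 1.96-fold lower, adjusted p = 0.000205). Sdsl, a relative of the serine dehydratase Sds, ran between 106 and 209 (median 139.6) in young livers and between 43.3 and 105 (median 80.2) in old livers, also without overlap. The difference of Sdsl was -0.84 ± 0.139, 1.79-fold lower, adjusted p = 0.00245. Got1, the cytosolic aspartate aminotransferase, ran between 588 and 3857 (median 1616) in young livers and between 222 and 1700.5 (median 658) in old livers. The difference of Got1 was -1.46 ± 0.373, 2.76-fold lower, adjusted p = 0.0292. Only 3 old livers lay below every young liver for Got1, and its call ended in 6 of 18 fits that each left out 1 array (highest adjusted p = 0.0592, without old olive oil liver 2), among them the fit without old fish oil liver 3 (adjusted p = 0.0524). Sds itself, the dehydratase that turns serine into pyruvate, ran between 235 and 4027 (median 1756) in young livers and between 0.9 and 1315 (median 50.4) in old livers, with 7 old livers below every young liver. The difference of Sds was -4.01 ± 0.679, 16.2-fold lower, adjusted p = 0.00269. The other 7 falls, named after their values were seen, were in threonine (Gcat, -0.78), leucine (Mccc1, -0.71), branched-chain keto acid (Bckdha, -0.68), valine (Hibch, -0.60), tryptophan (Haao, -0.45) and propionate (Pcca, -0.39) breakdown and in Got2 (-0.32). The summed level of the list ran 9.9 to 10.3 in young and 9.11 to 10.2 in old livers, lowest in old fish oil liver 3. Of 11 urea cycle genes Slc25a15, the ornithine carrier (-0.54 ± 0.138, adjusted p = 0.0298), and Ass1 (-0.36 ± 0.099, adjusted p = 0.0436) fell with a median of -0.36, but both calls ended after quantile normalization and without old fish oil liver 3. The call of Slc25a15 ended in 8 of 18 fits with 1 array left out, highest adjusted p = 0.0607 without young fish oil liver 1, and that of Ass1 in 12 of 18 fits with 1 array left out, highest adjusted p = 0.0869 without old olive oil liver 2.

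Neighbouring pathways that use amino acids or cofactors were lower in part. Haem synthesis and breakdown had 4 of 16 genes lower and 0 higher (median -0.32), 5 after quantile normalization and 3 to 5 with each array left out in turn. Urod, an enzyme in the middle of haem synthesis, ran between 755 and 955 (median 826) in young livers and between 406 and 700.3 (median 566) in old livers, without overlap. The difference of Urod was -0.55 ± 0.093, 1.47-fold lower, adjusted p = 0.00265. Alad, which makes the pyrrole building block, ran between 1581 and 2255 (median 1945) in young livers and between 653 and 1744 (median 1294) in old livers. The difference of Alad was -0.60 ± 0.133, 1.52-fold lower, adjusted p = 0.0125. Blvrb, a biliverdin reductase, ran between 518 and 1069.7 (median 807) in young livers and between 368 and 633 (median 501) in old livers. The difference of Blvrb was -0.66 ± 0.119, 1.58-fold lower, adjusted p = 0.00399. The summed haem level did not overlap between the ages, 7.99 to 8.15 in young and 7.65 to 7.96 in old livers. Of the methionine adenosyltransferases, which make S-adenosylmethionine, the liver form Mat1a fell (-0.36 ± 0.095, adjusted p = 0.038; call lost in 13 of 18 fits with 1 array left out, highest adjusted p = 0.0764 without old olive oil liver 2) and Mat2a, the form of other tissues and of growing liver, rose, with signals between 179.6 and 402 (median 226) in young livers and between 269.8 and 439 (median 361) in old livers. The difference of Mat2a was 0.60 ± 0.142, 1.51-fold higher, adjusted p = 0.0196. A much dimmer probe set of Mat2a gave -0.16. Qprt, which leads from tryptophan to NAD, fell (-0.46 ± 0.114, adjusted p = 0.0236), and its call ended without the number 2 young livers (-0.42, adjusted p = 0.0941). Nfe2l2, the gene of NRF2, ran between 271 and 563 (median 416) in young livers and between 575 and 1190.4 (median 792) in old livers without overlap (0.94 ± 0.114, 1.91-fold higher, adjusted p = 0.000205), while Prdx5 (-0.59 ± 0.115, adjusted p = 0.00672) and the mitochondrial thioredoxin reductase Txnrd2 (-0.53 ± 0.09, adjusted p = 0.00295) fell. Of 25 selenoproteins 4 fell and 0 rose, among them Selenos of the endoplasmic reticulum (-0.44 ± 0.101, adjusted p = 0.0172), and 2 fell without old fish oil liver 3.

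Lipid storage and uptake genes had 9.4% called, against 5.23% of all genes and 6.75% to 10.3% in the 2 brightest bins. The calls among synthesis genes depended on the number 2 livers. Of 32 genes of triglycerides, droplets and lipases 2 rose, Plin2 and Cd36, and 1 fell, Lpin2, a phosphatidate phosphatase (-0.72 ± 0.19, adjusted p = 0.0354; without the number 2 young livers -0.57, adjusted p = 0.116). The call of Lpin2 ended in 8 of 18 fits with 1 array left out, highest adjusted p = 0.0681 without old olive oil liver 2. The list median was -0.04, and without the number 2 young livers 2 rose and 3 fell. Plin2, the coat of lipid droplets, was among the brightest genes without overlap, with signals between 917 and 2805 (median 2316) in young livers and between 2949 and 4744 (median 3806) in old livers. The difference of Plin2 was 0.86 ± 0.186, 1.81-fold higher, adjusted p = 0.0118. Cd36, a fatty acid transporter, ran between 55.8 and 326 (median 188) in young livers and between 177 and 1193 (median 547) in old livers, with 8 old livers above every young liver. The difference of Cd36 was 1.54 ± 0.301, 2.92-fold higher, adjusted p = 0.00667. Angptl8, which restrains lipoprotein lipase, ran between 62 and 188 (median 122) in young livers and between 159 and 492 (median 222) in old livers. The difference of Angptl8 was 0.88 ± 0.189, 1.84-fold higher, adjusted p = 0.0113. Crot, a peroxisomal enzyme that prepares shortened fatty acids for export, ran between 135 and 3486 (median 1067) in young livers and between 949 and 6234 (median 2759) in old livers (1.53 ± 0.413, 2.9-fold higher, adjusted p = 0.0385), but its call ended without the number 2 young livers (0.89, adjusted p = 0.12) and in 10 of 18 fits that each left out 1 array (highest adjusted p = 0.0774, without old olive oil liver 2), and a dim probe set of Crot gave -0.10. Ugcg, the glucosylceramide synthase, rose at low signal (0.46 ± 0.085, adjusted p = 0.00487). Of 24 genes of fatty acid synthesis and desaturation 0 rose and 3 fell with all arrays, Fads1, Fads2 and Elovl2, and 1 without old fish oil liver 2. Without the number 2 young livers, 5 rose and 1 fell, and the list median went from -0.02 to 0.27. The 5 were Scd, the stearoyl-CoA desaturase (6.23, adjusted p = 0.000104), Fasn, the fatty acid synthase (1.80, adjusted p = 0.0058), Acly, which makes cytosolic acetyl-CoA (0.99, adjusted p = 0.00602), the elongase Elovl6 (1.33, adjusted p = 0.0126) and Thrsp (1.69, adjusted p = 0.034), all named after their values were seen. Fasn signals ran from 33.1 to 95.3 in the other 6 young livers, from 1161 to 2535 in the number 2 livers and from 84.5 to 645 in old livers. The old range of Fasn overlapped the other 6 young livers at its low end and lay below the number 2 livers.

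Glucose and glycogen enzymes had a few falls with all arrays. Ugp2, which makes the UDP-glucose that glycogen is built from, ran between 2569.6 and 5802 (median 3768) in young livers and between 1104 and 2488 (median 2121) in old livers, without overlap. The difference of Ugp2 was -0.87 ± 0.161, 1.83-fold lower, adjusted p = 0.00482. Gys2, the liver glycogen synthase, fell (-0.57 ± 0.143, adjusted p = 0.0275), with its call lost in 7 of 18 fits with 1 array left out, highest adjusted p = 0.0553 without young fish oil liver 1. Pfkm, the muscle form of phosphofructokinase, fell at low signal (-0.67 ± 0.124, adjusted p = 0.00482), as did Pck2 (-0.54 ± 0.126, adjusted p = 0.0183), whose call ended without the number 2 young livers (-0.51, adjusted p = 0.068). Of 27 glycolysis and gluconeogenesis genes 3 fell and 0 rose (median -0.09), but without the number 2 young livers 2 fell and 2 rose (median 0.06). Of 12 glycogen genes 2 fell and 0 rose, and without those livers 1 fell and 2 rose. In the pentose phosphate pathway Rpia (0.46 ± 0.119, adjusted p = 0.0314) and Rpe (0.31 ± 0.085, adjusted p = 0.0423) rose among 9 members whose median was -0.25, against the sign of both. Both calls ended after quantile normalization and without old olive oil liver 3, and the median was 0.32 without the number 2 young livers.

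Some hormone-linked families changed in old livers, mainly the sex-biased genes. Insulin signalling had 1 of 31 called (3.2%) and thyroid hormone response 1 of 15 (6.7%), near the 5.23% of all genes. Of 14 genes known to be higher in female than in male rat liver, 7 rose and 1, Hao2, fell (median 0.89), 7 rose with each array left out in turn and 6 without the number 2 young livers. The call of Hao2 (-1.85 ± 0.515, adjusted p = 0.0448) ended in 12 of 18 fits with 1 array left out, highest adjusted p = 0.0835 without old olive oil liver 3, and also after quantile normalization and without the number 2 young livers (-1.63, adjusted p = 0.142). The summed level of the list did not overlap, 6.98 to 7.31 in young and 7.69 to 9.03 in old livers. Prlr, the prolactin receptor, ran between 14 and 150.4 (median 92.9) in young livers and between 80.2 and 698 (median 550.1) in old livers. The difference of Prlr was 2.07 ± 0.381, 4.19-fold higher, adjusted p = 0.00472. Both other probe sets of Prlr passed in the same direction. Trim24, a coregulator of nuclear receptors, ran between 5.4 and 33.1 (median 20.8) in young livers and between 34 and 399 (median 71.7) in old livers, without overlap. The difference of Trim24 was 1.56 ± 0.319, 2.94-fold higher, adjusted p = 0.00872. Of 18 male-biased genes 3 fell and 0 rose (median -0.49). Cyp2a2 ran between 3327 and 5194 (median 4438) in young livers and between 901 and 3240.2 (median 2662) in old livers, without overlap. The difference of Cyp2a2 was -0.85 ± 0.193, 1.8-fold lower, adjusted p = 0.016. Obp3, Cyp3a2 and Slc22a8 did not pass and were named after their values were seen. Obp3 signals ran between 5331 and 9813 (median 6674) in young livers and between 111 and 8682 (median 5487) in old livers (-1.05 ± 0.586, adjusted p = 0.318), and Cyp3a2 ran between 4632 and 7755 (median 6501) in young livers and between 119 and 6591 (median 5039) in old livers (-1.13 ± 0.57, adjusted p = 0.263). For both, as for Slc22a8 (-1.37 ± 0.535, adjusted p = 0.147), the lowest old value was that of old fish oil liver 3, and without it the male-biased median was -0.18. Igf1 (-0.01 ± 0.085, adjusted p = 0.975) and the growth hormone receptor Ghr (0.24 ± 0.093, adjusted p = 0.136) did not pass, and Ghr had 0.37 with an adjusted p of 0.0166 after quantile normalization. The leptin receptor Lepr, which in liver includes the secreted form, ran between 47.7 and 105 (median 78) in young livers and between 3.2 and 53 (median 24.8) in old livers. The difference of Lepr was -1.27 ± 0.194, 2.41-fold lower, adjusted p = 0.00128. Of the other probe sets of Lepr 3 passed in the same direction (-1.35, -1.47 and -0.92), and 3 dimmer ones gave 0.13, -0.10 and -0.19 and did not pass.

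Clock genes moved in both directions. Of 19 clock genes 4 fell and 2 rose (median -0.10). Nr1d2, a repressor of the clock, ran between 242 and 694 (median 489) in young livers and between 124 and 388 (median 198) in old livers. The difference of Nr1d2 was -1.07 ± 0.222, 2.1-fold lower, adjusted p = 0.00969. Nr1d1, its close relative, fell with it (-1.93). Nfil3, which represses what Dbp and Tef activate, ran between 50.3 and 235 (median 116) in young livers and between 147 and 491 (median 328) in old livers. The difference of Nfil3 was 1.15 ± 0.232, 2.23-fold higher, adjusted p = 0.00816. Rora, which activates what Nr1d1 and Nr1d2 repress, rose (0.80 ± 0.155, adjusted p = 0.00638). Tef fell (-0.69, named after its value was seen). Of the 6 called clock genes only 1, Tef, holds the E-box CACGTG that clock activators bind in the promoter stretch searched. The motif was in 1591 of all promoters (5.79%) and in 918 of 11733 matched genes (7.82%), and it is in capitals here.
Tef, chr7:115206604-115206659, plus strand: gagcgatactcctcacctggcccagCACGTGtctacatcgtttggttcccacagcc
Without the number 2 young livers, 1 clock gene fell and 3 rose, with -1.79, adjusted p = 0.08 for Dbp and -0.83, adjusted p = 0.0525 for Nr1d2, and the labels used here give no hour of killing. Klf9, induced by glucocorticoid and thyroid hormone, ran between 945 and 1867 (median 1480.0) in young livers and between 459.9 and 1241 (median 839.9) in old livers (-0.82 ± 0.17, 1.76-fold lower, adjusted p = 0.0097), the 1 called gene of 21 that glucocorticoid induces (4.8%, median -0.10), and a dim probe set gave 0.23. Klf15, which drives amino acid breakdown in fasting, ran between 1166 and 2130.4 (median 1736) in young livers and between 464 and 1394 (median 989.5) in old livers. The difference of Klf15 was -0.78 ± 0.164, 1.72-fold lower, adjusted p = 0.01. Its call ended without the number 2 young livers (-0.64, adjusted p = 0.0508). Among 42 nuclear receptors Rarb, a retinoic acid receptor, rose, with signals between 198 and 374 (median 217) in young livers and between 313 and 627 (median 468) in old livers. The difference of Rarb was 0.90 ± 0.147, 1.87-fold higher, adjusted p = 0.0024.

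Lists of the zones of the liver lobule had larger shares of called members than all genes (5.23%), on small counts. Both lists were bright, and 10.3% of the brightest bin was called, close to the share around the central vein. Of 23 genes of the zone around the portal vein 1 rose and 3 fell (17.4% called, median -0.19). Of 20 genes of the zone around the central vein 0 rose and 2 fell (10% called, median -0.09). The rise around the portal vein ended without old fish oil liver 1, and 2 to 4 fell there with each array left out in turn.

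Secreted and plasma proteins gave few calls. Lect2, a protein that hepatocytes secrete, ran between 1357 and 2917 (median 1928) in young livers and between 652 and 1021 (median 942) in old livers. The ages were fully apart (-1.15 ± 0.136, 2.23-fold lower, adjusted p = 0.000182), and it passed with each array left out in turn and under each other setting listed for scaling, pseudocount, filter, block and weights. Ces1c, a secreted carboxylesterase, ran between 4799.8 and 6082 (median 5260.0) in young livers and between 1966 and 4369 (median 3173) in old livers, without overlap. The difference of Ces1c was -0.87 ± 0.143, 1.83-fold lower, adjusted p = 0.00245. Of 32 complement genes C6, a part of the membrane attack complex, rose, with signals between 101 and 642 (median 277) in young livers and between 331 and 1618 (median 632) in old livers (1.35 ± 0.321, 2.55-fold higher, adjusted p = 0.0201), beside C1qa. Of 28 coagulation genes 1 fell, F10 (-0.31 ± 0.077, adjusted p = 0.0237), with 0 without old olive oil liver 2, 3 without old sunflower oil liver 1 and 6 with arrays centred, and of 25 apolipoprotein genes Apoa1 fell (-0.39 ± 0.106, adjusted p = 0.0413), its call lost in 12 of 18 fits with 1 array left out, highest adjusted p = 0.0799 without young fish oil liver 1. Albumin (Alb) did not pass, with signals between 8091 and 12350.5 (median 9919) in young livers and between 7462 and 10033 (median 9279) in old livers (-0.17 ± 0.082, adjusted p = 0.255).

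Several detoxification families had more members called than the 5.23% of all genes, on small counts, while transport families had 3% to 9.5%. Most of the detoxification lists were bright on average, and 10.3% of the brightest bin was called. Among glutathione S-transferases 3 of 23 fell and 0 rose (13% called, median -0.22). Mgst2, a membrane-bound member, ran between 1831 and 2556 (median 2184) in young livers and between 718 and 1427 (median 1238) in old livers, without overlap. The difference of Mgst2 was -0.87 ± 0.116, 1.83-fold lower, adjusted p = 0.000442. Gstm5 ran between 37.8 and 152 (median 74.4) in young livers and between 17.6 and 41.4 (median 26.6) in old livers. The difference of Gstm5 was -1.15 ± 0.188, 2.22-fold lower, adjusted p = 0.00233. In the P450 families 1 to 4, 2 of 40 rose and 3 fell (12.5% called). In sulfotransferases 2 of 13 rose and 0 fell (15.4%), and none of 7 UDP-glucuronosyltransferases passed. Of 36 aldo-keto reductases, alcohol dehydrogenases and aldehyde dehydrogenases 4 rose and 2 fell (16.7%). With each array left out in turn, 2 to 5 of these 36 rose. Akr7a2, an aldehyde reductase, ran between 1660.1 and 2513 (median 2078) in young livers and between 673 and 1597 (median 1449) in old livers, without overlap. The difference of Akr7a2 was -0.63 ± 0.133, 1.55-fold lower, adjusted p = 0.01. Adh7, an alcohol dehydrogenase that oxidizes retinol, ran between 24.2 and 98.5 (median 49) in young livers and between 67.7 and 378 (median 195) in old livers. The difference of Adh7 was 1.48 ± 0.268, 2.78-fold higher, adjusted p = 0.00447. Among transporters, the amino acid carriers Slc43a1 (-0.98 ± 0.212, adjusted p = 0.0116) and Slc38a3 (-0.74 ± 0.177, adjusted p = 0.0201) fell, Slc38a3 losing its call without the number 2 young livers (-0.69, adjusted p = 0.0728), and the iron exporter Slc40a1 (0.51 ± 0.12, adjusted p = 0.0191) and the sodium pump subunit Atp1b3 (0.56 ± 0.094, adjusted p = 0.00267) rose. Aqp9, the glycerol channel of hepatocytes, ran between 2076 and 2618 (median 2354) in young livers and between 1112 and 2154 (median 1829) in old livers. The difference of Aqp9 was -0.47 ± 0.096, 1.39-fold lower, adjusted p = 0.00844.

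Other larger changes lay outside the families above or in families with few calls. Sema3c, a secreted guidance protein, ran between 2.1 and 15.9 (median 7.1) in young livers and between 17.2 and 165 (median 38.3) in old livers, without overlap. The difference of Sema3c was 1.48 ± 0.229, 2.79-fold higher, adjusted p = 0.0014. Tpd52l1 ran between 7.3 and 48.6 (median 13.9) in young livers and between 27.4 and 281 (median 65.2) in old livers. The difference of Tpd52l1 was 1.67 ± 0.21, 3.17-fold higher, adjusted p = 0.000233. Unc5cl ran between 22.4 and 134 (median 65) in young livers and between 104 and 319 (median 268) in old livers. The difference of Unc5cl was 1.59 ± 0.237, 3.02-fold higher, adjusted p = 0.00113. Hdc, the enzyme that makes histamine, overlapped widely, with signals between 5.6 and 554 (median 36.9) in young livers and between 57 and 1164 (median 115) in old livers. The difference of Hdc was 1.51 ± 0.334, 2.84-fold higher, adjusted p = 0.0134. Apcdd1, an inhibitor of Wnt signalling, fell to near the floor, with signals between 29.4 and 92.1 (median 42.7) in young livers and between 0.9 and 23.4 (median 8.1) in old livers. The difference of Apcdd1 was -1.39 ± 0.191, 2.62-fold lower, adjusted p = 0.000621. Cela1, an elastase known from the pancreas, was bright here, with signals between 874 and 1479 (median 989) in young livers and between 142 and 567 (median 455) in old livers. It fell without overlap (-1.37 ± 0.206, 2.58-fold lower, adjusted p = 0.00126), while the other 12 measured exocrine pancreas markers did not pass. Gpr146, a receptor of the cell surface, ran between 137 and 423 (median 324) in young livers and between 90.6 and 247 (median 116) in old livers. The difference of Gpr146 was -1.08 ± 0.191, 2.11-fold lower, adjusted p = 0.00379. Nox4, an oxidase that makes hydrogen peroxide, fell (-1.18 ± 0.305, adjusted p = 0.0315), with its call lost in 7 of 18 fits with 1 array left out, highest adjusted p = 0.0623 without old sunflower oil liver 3. The small heat shock protein Hspb1 ran between 218 and 705 (median 426) in young livers and between 77.2 and 263 (median 179) in old livers. The difference of Hspb1 was -1.05 ± 0.235, 2.07-fold lower, adjusted p = 0.0141. The organic ion carriers Slc17a4 (-1.07 ± 0.162, adjusted p = 0.00127) and Abca8 (-1.12 ± 0.266, adjusted p = 0.0193) fell as well.

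Some large families gave no calls. None of 109 homeobox and forkhead genes, 105 neuronal receptor and synapse genes, 51 Wnt pathway genes or 41 olfactory and vomeronasal receptors passed, with list medians from 0.02 to 0.06, although 2 homeobox and forkhead genes rose without old sunflower oil liver 2. Such genes were mostly dim, and at an unadjusted p under 0.05 the count over all genes was 3026. Core genes that did not pass were Hnf4a, a leading factor of hepatocytes (0.20 ± 0.095, adjusted p = 0.245), Ppara (-0.07 ± 0.272, adjusted p = 0.92), Nfkb1 (0.28 ± 0.205, adjusted p = 0.47) and Il6 (0.11 ± 0.112, adjusted p = 0.626). 

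Signals of 72 genes did not overlap between the 9 old and 9 young arrays (0.506% of all genes), 37 of them higher and 35 lower at 24 months, and 71 of the 72 passed the test. After quantile normalization the counts were 29 higher and 39 lower. They were not confined to extreme genes: the smallest differences among those named above were in Psmd2 (-0.38), Vcp (-0.43) and Mcm4 (0.53), each under 1.5-fold.

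Some large differences did not pass, and animals of 1 age lay far apart in them. In all, 36 genes had a difference above 1 in size without passing, 21 higher and 15 lower in old livers. The genes given here were chosen after their values were seen. Scd signals ran from 1.4 to 25.8 in the 6 young livers without the number 2, from 6102 to 8930 in the number 2 livers and from 223 to 6131 in old livers (3.52 ± 1.376, adjusted p = 0.147). Ugt2b signals ran between 3.9 and 5759 (median 17.7) in young livers and between 5.9 and 6112 (median 5216) in old livers (1.71 ± 1.753, adjusted p = 0.624), with values close to the floor and very bright values at both ages. The neutrophil protein gene Lcn2 ran between 10.9 and 43 (median 20.5) in young livers and between 18.4 and 5520.1 (median 47.7) in old livers (1.80 ± 0.639, adjusted p = 0.107) and the chemokine Cxcl1 ran between 0.5 and 40.1 (median 4.9) in young livers and between 10 and 964 (median 31) in old livers (1.87 ± 0.609, adjusted p = 0.0797), the highest value of each being that of old fish oil liver 3. Cyp7a1, which sets the pace of bile acid production, ran between 116 and 1239.6 (median 546) in young livers and between 33.7 and 446 (median 184) in old livers (-1.43 ± 0.433, adjusted p = 0.0601), and Hsd17b2, a steroid dehydrogenase, ran between 928 and 7046 (median 4196) in young livers and between 645 and 2894 (median 958) in old livers (-1.39 ± 0.414, adjusted p = 0.0579).

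Whether ageing depended on the oil was asked with limma's moderated F test of the age by oil interaction. No gene passed (0 of 14217, smallest adjusted p = 0.446), and 785 genes had an unadjusted p under 0.05 (5.52%). The 5 genes with the smallest p were Cd7, Scn10a, Olr59, Kifc3 and Naaa. With 3 animals in a group, a miss does not show that the oils acted alike. The spread between animals was close at both ages. The median SD around the group means was 0.252 in young and 0.255 in old livers, and 50.6% of genes had the larger SD in old livers. Without the number 2 young livers the young median was 0.225 and the share was 59.3%, and without old fish oil liver 3 the old median was 0.24 and the share was 45.5%.

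Other probe sets mostly gave the same direction. Of the called genes 226 had several probe sets, all others had the same sign in 170, another passed in the same direction in 56, and another passed in the opposite direction in 0. Among 10216 probe sets left out of the gene table because they carried several gene symbols or none, 145 were higher and 32 lower in old livers (1.73% called), with a median difference of 0.05 and a median log2 signal of 4.56, against 6.02 for named genes.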

How the data were processed

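The authors deposited 1 linear intensity per probe set and array on Affymetrix arrays of 18 rat livers. RMA and Partek appear, with no version, in the submitters' processing notes, but the values are linear signals from 0.0 to 14085 with a trimmed mean of 99.2 to 99.4 on every array, so they were used as scaled intensities and were not read as RMA log2 values. No source used here gives a genome build. Of 31042 probe sets 20826 carried 1 gene symbol, and the brightest stood for each of 14217 genes. log2(signal + 16) was fitted with limma 3.58.1 (R 4.3.3) on oil and age (14 residual degrees of freedom), with Benjamini-Hochberg adjustment over all genes. A fold change on this scale understates the change of dim genes, and 47.3% of all values lay under 16. The number of arrays limits the precision. The method was tested on simulated data.

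Members and the 125 lists were chosen with earlier results of these data known, and 4 symbol patterns were corrected after values were seen to drop non-members. List levels are mean log2 values over members. Lists were described by counts and medians without a set test. Named genes were ranks 11 to 25 by size in each direction, up to 4 called members per list, the 5 smallest p-values of the ageing and interaction tests, fixed core genes and the 10 brightest genes without overlap. Replicate numbers did not pair young with old livers: same-numbered livers of 1 oil correlated at -0.079 to 0.18 in their deviations. At 6 months they did go with shared deviations across oils (0.153 to 0.459). Alternatives were other scalings, pseudocounts, filters, blocks, array weights and arrays left out. No array was left out or imputed in the values reported as deposited.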

Additional observations from a re-analysis of the deposited data

Results flagged for a closer look

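In 46 sets of 9 livers of 1 age, a single liver far from the others was searched with Dixon's ratio. A set held the summed level of a gene list (mean log2 signal over its members) or the array median. Chance marks about 1 in 20 independent sets. These sets share livers, and list members were chosen with earlier results known, so that share is no fair baseline. Here 10 sets were marked. 6 of these were old fish oil liver 3. Its level was 8.29 for interferon-induced antiviral genes (median of the old livers 7.54), 9.66 for interferon-induced GTPases (7.34), 8.23 for monocyte and neutrophil markers (6.37) and 5.84 for T and NK cell markers (5.03), each the highest. Its level was 8.48 for male-biased liver genes (median 10.7) and 9.11 for amino acid catabolism (9.83), both the lowest.

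Old olive oil liver 1 was highest for mitochondrial ribosomal proteins at 8.93 (median 8.49) and lowest for mesothelial markers at 4.74 (5.09). Old sunflower oil liver 3 was lowest for erythroid markers at 5.72 (6.46). Young fish oil liver 2 was lowest for class II genes at 6.6 (7.26). What set these livers apart was not tested.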

How the results depend on the processing

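Of 255 named genes past the threshold, 131 kept their call under every listed change of scaling, pseudocount, filter, block, weights or probe sets and without the number 2 young livers, 170 with each array left out in turn, 129 in both, and 0 changed sign. Without the number 2 young livers 87 calls were lost, against 64 with a pseudocount of 4, 55 after quantile normalization, 47 without old fish oil liver 3 and 34 with arrays centred on their medians. The first of these settings drops 3 of the 9 young arrays and the others drop 1 or none, so these losses are not a like comparison. With array weights 1155 genes passed (585 higher, 570 lower). Centring gave 219 higher and 883 lower, a pseudocount of 4 gave 222 lower, and quantile normalization without the number 2 livers, added after seeing the data, gave 234 higher. With 1 array left out the total ran from 482 to 1028, rises from 256 to 485, falls from 226 to 543 and interaction calls from 0 to 5. With the replicate number as a block 1018 genes passed (514 higher, 504 lower). Same-numbered young livers correlated across oils in their deviations (0.153 to 0.459, where numbers 1 and 3 are not independent of number 2). Young with old livers gave -0.079 to 0.18. The share of genes with the larger SD in old livers was 59.3% without the number 2 livers, 45.5% without old fish oil liver 3, 54.3% without both, 49.5% after quantile normalization and 49.3% among bright genes. The causes were not tested. Of 15 named genes that did not pass, 2 passed under an alternative. Genes near the pseudocount of 16 have compressed folds, so a miss there bounds little.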
